A study of Mus musculus with 41 samples.

Results

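A group of 10 genes, out of the 47480 gene symbols measured, was followed across 41 mouse mammary tumors. Of these, 8 are genes of macrophages (Csf1r, Cd68, Adgre1, Mrc1, Cd163, Lyz2, C1qa and C1qb) and 2 encode signals that draw or sustain them (Csf1 and Ccl2). They were chosen by symbol, and all 10 were found and passed the filter on low values. The tumors were 28 Plk2-/-; p53-/- tumors (named as in PLK2null-1975) and 13 p53-/- tumors (named as in p53null-2208L), so p53 was absent by label in every tumor and Plk2 was the allele that differed. By the labels all were Balb/c tumors grown after injection into the mammary gland of mice of the same strain and left untreated, although the study follows 7 of the Plk2-/-; p53-/- tumors by name as primary tumors, and no animal age is given. The Plk2-/-; p53-/- tumors go back to mammary epithelial cells grafted into the emptied fat pads of Balb/c mice with intact Plk2 and p53, so the macrophages and vessels that the host supplied there carried both genes. The study's clustering named 4 tumors claudin-low, a class of low epithelial and tight-junction gene expression. These were PLK2null-732, PLK2null-733 and PLK2null-743, together called the trio, and p53null-T11 among the p53-/- tumors.

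Macrophages in a tumor derive from circulating monocytes and from cells resident in the tissue. The cytokine CSF1 and its receptor, a tyrosine kinase encoded by Csf1r, keep them alive and dividing, and the chemokine CCL2 draws monocytes that carry CCR2 out of the blood. In the mammary gland, macrophages take part in duct growth and in involution, and they are common host cells of mammary tumors. In bulk RNA, fewer macrophages and less RNA per macrophage cannot be told apart, which holds for every value given here.

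Values are estimated counts that the authors scaled so that the upper quartile of nonzero values was 1000 in each tumor. Depth, read from the size of the steps between low values, was 29409609 to 70868125 fragments per tumor, and each member had at least 21 reads in every tumor, above a floor of 3 reads. Median depth was 39053966 in the Plk2-/-; p53-/- tumors and 58042774 in the p53-/- tumors, so depth differed with genotype. Plk2 averaged 298 ± 149 (SD) over the Plk2-/-; p53-/- tumors and 3436 ± 2104 (SD) over the p53-/- tumors, but the library labelled p53null-7435 had 186, inside the Plk2-/-; p53-/- range. Every p53-/- title carries a numbered series name that the other titles lack, so library series and genotype cannot be told apart. Among the Plk2-/-; p53-/- tumors, 14 fell into 4 sets of closely alike tumors, 1 of which is the trio, with r from 0.937 to 0.959. Which tumors share a parent is not given, so p-values measure the spread between these tumors and may be too small. The epithelial markers Epcam, Krt8, Krt18 and Cdh1 together came to 40.1 to 248 in the trio, to 12794 to 109867 in the other 25 Plk2-/-; p53-/- tumors and to 33708 in p53null-T11. The p53null-T11 sum was below those of the other 12 p53-/- tumors (56359 to 272602) but inside the range of the 25. Set against the trio, these markers thus go against the claudin-low name of p53null-T11, while within its genotype they lie on the side of the name. The claudin genes that the study reports as low in its claudin-low tumors were not examined here.

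Per kilobase of exon, the scale on which genes can be compared, the median level over the 41 tumors was highest for Lyz2, at 9675. Lyz2 encodes lysozyme M, a bacteria-digesting enzyme of myeloid cells. C1qa followed at 4728 and C1qb at 3436, which encode chains of C1q, the molecule that starts the classical complement cascade and that macrophages secrete. Cd68, a lysosomal membrane glycoprotein, came next at 1124, then Csf1r at 427 and Csf1 at 307. Adgre1, which encodes the surface antigen F4/80, was at 201, Ccl2 at 181 and Mrc1, the mannose receptor CD206, at 133. Cd163, the scavenger receptor for haptoglobin-bound hemoglobin, was last at 27.3. Within a tumor the order of C1qa over C1qb, of C1qb over Cd68 and of Cd68 over Csf1r held in 41 of 41 tumors. Csf1r exceeded Csf1 in 26 and Adgre1 exceeded Ccl2 in 23, so these neighbours did not separate.

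The promoter sequences of 3 members are shown because Cd68 and Mrc1 were the macrophage genes that differed between groups and C1qb was the member most alike to Spi1, the gene of the macrophage transcription factor PU.1. RefSeq promoter windows (GRCm38.p6, the mm10 build) were found for 6 of the 10 members. Capitals mark GAGGAA or its reverse complement TTCCTC, the core letters of a PU.1 site, and TGANTCA, the letters of an AP-1 site, which reads alike on both strands. Each run is 5′ to 3′ on the strand of its gene and lies before the RefSeq start.
Cd68, chr11:69666171-69666420, minus strand: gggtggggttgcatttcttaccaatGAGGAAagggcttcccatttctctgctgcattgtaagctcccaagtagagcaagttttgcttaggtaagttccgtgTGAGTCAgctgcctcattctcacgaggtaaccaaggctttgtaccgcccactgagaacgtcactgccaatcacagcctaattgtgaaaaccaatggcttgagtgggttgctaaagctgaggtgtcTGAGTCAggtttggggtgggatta
Mrc1, chr2:14229164-14229391, plus strand: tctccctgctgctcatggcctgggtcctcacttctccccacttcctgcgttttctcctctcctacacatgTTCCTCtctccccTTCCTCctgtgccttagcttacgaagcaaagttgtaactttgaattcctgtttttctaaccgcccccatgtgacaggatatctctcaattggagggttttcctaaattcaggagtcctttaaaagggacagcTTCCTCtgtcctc
C1qb, chr4:136886201-136886450, minus strand: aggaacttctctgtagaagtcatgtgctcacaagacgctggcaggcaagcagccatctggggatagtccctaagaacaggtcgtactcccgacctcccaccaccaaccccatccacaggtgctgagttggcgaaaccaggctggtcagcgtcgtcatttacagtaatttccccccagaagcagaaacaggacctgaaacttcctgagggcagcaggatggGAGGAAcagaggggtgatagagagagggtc
Mrc1 held GAGGAA 3 times on the opposite strand, 180, 167 and 35 bases before the start. C1qb held it once, 30 bases before the start, and Cd68 once at 225 bases, with TGANTCA at 149 and 24 bases. In the 250 bases before the start, neither run of letters occurred in Csf1, Cd163 or Lyz2. Over all 32851 promoters, 23.3% held GAGGAA and 6.75% held TGANTCA in a window of that length, so a match describes letters only.

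Csf1 lies on chromosome 3 from 107741048 to 107760469 on the minus strand (GENCODE vM21, GRCm38). Its value ran from 691 to 3594 (median 2086) in the 28 Plk2-/-; p53-/- tumors and from 790.1 to 2964 (median 1502) in the 13 p53-/- tumors. Of the Plk2-/-; p53-/- tumors, 6 were above every p53-/- tumor and 2 were below, so the groups overlapped over most of their range. In PLK2null-732, PLK2null-733 and PLK2null-743 Csf1 was 1069.7, 1147 and 1621, below the median of 2462 of the other 25, and in p53null-T11 it was 2115.

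Its receptor Csf1r, on chromosome 18 from 61100598 to 61132149 on the plus strand, had the lowest ratio of highest to lowest value of the 8 macrophage genes over all 41 tumors, though C1qa and C1qb ranged less among the p53-/- tumors alone. It ran from 868 to 4791 (median 2435) in the Plk2-/-; p53-/- tumors and from 954 to 4429 (median 2483) in the p53-/- tumors. The trio had 2669.9, 3064 and 4554 against a median of 2359 in the other 25, and p53null-T11 had 2866. The groups overlapped nearly throughout. Csf1r overlaps Hmgxb3 on the opposite strand (mean 1128 over all tumors). Since the strand setting of the counting is not stated, reads from the stretch that they share cannot be told apart.

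Ccl2, on chromosome 11 from 82035571 to 82037453 on the plus strand, varied more than Csf1. It ran from 45.9 to 931 (median 217) in the Plk2-/-; p53-/- tumors and from 41.6 to 874 (median 175) in the p53-/- tumors. The trio held 929, 436 and 931 and p53null-T11 874. PLK2null-743, PLK2null-732 and p53null-T11 were thus the 3 highest of the 41 tumors, while PLK2null-733 lay within the range of the other 25, whose highest value was 713 in PLK2null-1974.

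**Figure D1:**
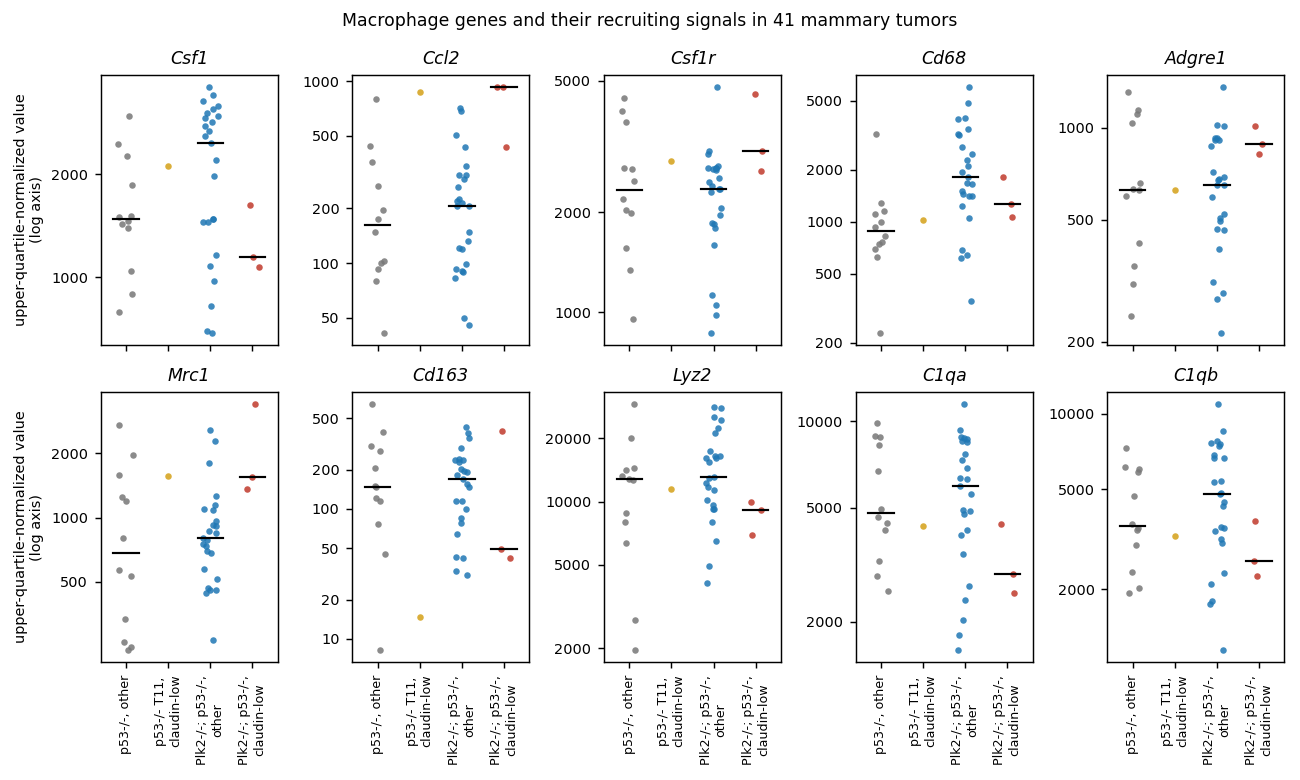
Values of the 10 genes in 41 tumors on log axes, 1 panel per gene. Points are tumors (12 p53-/- other, p53null-T11, 25 Plk2-/-; p53-/- other, 3 claudin-low) and bars are medians. For Ccl2, p53null-T11 (874) and a pair of claudin-low tumors (929 and 931) lie above all other tumors, while Cd68 has a median of 1812 in the other Plk2-/-; p53-/- tumors and 883 in the other p53-/- tumors.

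Cd68, on chromosome 11 from 69664213 to 69666153 on the minus strand, ran from 349 to 6002 (median 1741) in the Plk2-/-; p53-/- tumors and from 229.7 to 3225 (median 937) in the p53-/- tumors. Of the 28 Plk2-/-; p53-/- tumors, 24 were above the p53-/- median and 5 above every p53-/- tumor. The trio held 1272, 1059 and 1812 and p53null-T11 1020.1. Adgre1, on chromosome 17 from 57358691 to 57483527 on the plus strand, had nearly the same range in both genotypes, 214 to 1359.8 (median 679) against 243 to 1309.7 (median 627). Its values in the trio were close together, at 819.8, 883 and 1013, above the median of 652 of the other 25.

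Lyz2, on chromosome 10 from 117277331 to 117282321 on the minus strand, ran from 4119 to 28172 (median 12594) in the Plk2-/-; p53-/- tumors and from 1969 to 29112 (median 12732) in the p53-/- tumors. The trio held 9165, 6934 and 9941, all below the median of 13154 of the other 25 but within their range. Lyz2 has a near-identical paralog, Lyz1, to which counting can assign part of its reads. Lyz1 was 257 or lower in the Plk2-/-; p53-/- tumors but reached 8328 in p53null-2224L, so the Lyz2 value of that tumor is uncertain.

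The C1q genes sit on the minus strand of chromosome 4, C1qa from 136895917 to 136898803 and C1qb from 136880129 to 136886187, with the gene of the third chain, C1qc, between them. C1qa ran from 1593 to 11472 (median 5258) in the Plk2-/-; p53-/- tumors and from 2563 to 9858 (median 4642) in the p53-/- tumors. C1qb ran from 1145 to 10923 (median 4368) in the former and from 1936 to 7322 (median 3491) in the latter. For both chains the Plk2-/-; p53-/- tumors reached further up and further down. The trio held 2942, 2527 and 4374 of C1qa and 2600.5, 2266 and 3738 of C1qb, below the medians of 5957 and 4801 of the other 25. PLK2null-1984 was the highest and PLK2null-7748 the lowest of the 41 tumors for both genes.

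Mrc1, on chromosome 2 from 14229392 to 14332057 on the plus strand, ran from 267 to 3394 (median 858) in the Plk2-/-; p53-/- tumors and from 240.4 to 2709.9 (median 805) in the p53-/- tumors. The trio held 1355, 1546 and 3394 against a median of 802 in the other 25, and p53null-T11 held 1567. PLK2null-743 was the highest of all 41 tumors, but the other 2 of the trio lay within the range of the 25, which reached 2573. Cd163, on chromosome 6 from 124304656 to 124330527 on the plus strand, was low and uneven. It ran from 30.9 to 429.97 (median 163) in the Plk2-/-; p53-/- tumors and from 8.18 to 643 (median 148) in the p53-/- tumors. It was 41.5 in PLK2null-732 and 49.1 in PLK2null-733 but 402 in PLK2null-743, and 14.7 in p53null-T11, so the claudin-low tumors spanned most of its range.

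The first comparison asked whether the macrophage genes differ with Plk2 in p53-/- tumors. Cd68 was the 1 member that changed. Its mean was 2132 ± 1355 (SD, n = 28) with both genes deleted and 1049 ± 708 (SD, n = 13) with p53 alone deleted, which on the log2(value + 1) scale is 0.96 higher (SE 0.304, limma adjusted p = 0.0102, 2-sided permutation p = 0.00315 over 100000 resamples). That is 1 of 10 members, higher, where 39.5% of all 17208 genes tested were called, 24.3% as higher and 15.3% as lower. The median difference of the members was 0.17 against 0.097 for all genes. The other 9 members had differences between -0.077 (C1qa, adjusted p = 0.836) and 0.37 (Lyz2, SE 0.281, adjusted p = 0.302). Csf1 differed by 0.24 (SE 0.232, adjusted p = 0.432), Csf1r by -0.073 (SE 0.203, adjusted p = 0.805) and Ccl2 by 0.16 (SE 0.405, adjusted p = 0.792). For none of the 10 members were the genotypes free of overlap, against 1.12% of all genes with all Plk2-/-; p53-/- tumors higher and 0.227% with all lower.

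The Cd68 call was kept with p53null-7435 left out (0.99, adjusted p = 0.0109), without the 4 claudin-low tumors (1.02, adjusted p = 0.0118) and, in an analysis added after the data were seen, with each set of alike tumors entered as 1 sample (0.85, adjusted p = 0.0299). It was lost when only the 7 Plk2-/-; p53-/- tumors that the study follows by name as primary tumors were compared (0.54, adjusted p = 0.445), where 17.3% of all genes were called. Of 3 genes near Cd68 on chromosome 11, Eif4a1 and Mpdu1 were at -0.21 (adjusted p = 0.0885) and -0.15 (adjusted p = 0.396), and Trp53, the gene of p53, was higher like Cd68, by 0.64 (adjusted p = 0.0215).

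**Figure D2:**
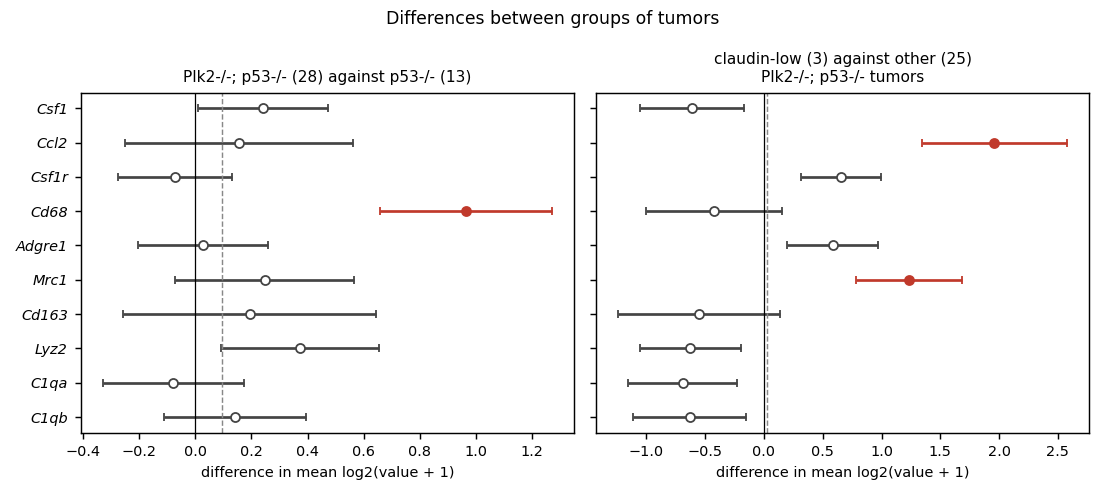
Difference in mean log2(value + 1) for each gene, with its SE from limma, for the genotypes (left) and for the claudin-low trio against the other 25 Plk2-/-; p53-/- tumors (right). Filled red points passed an adjusted p of 0.05 and the dashed line is the median of all genes. Cd68 (0.96) passed on the left, and Ccl2 (1.96) and Mrc1 (1.24) on the right.

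Of 22 further macrophage genes listed, 21 were tested, of which 8 were higher in the Plk2-/-; p53-/- tumors and 0 lower, with a median difference of 0.51, where 24.3% of all genes were higher. Values in parentheses are differences in mean log2(value + 1), each with limma's adjusted p. Among the genes called were Msr1 (1.18, adjusted p = 0.00860), a scavenger receptor, Mertk (1.13, adjusted p = 0.00395), a receptor for the uptake of dying cells, and Itgam (1.11, adjusted p = 0.0241), the integrin CD11b. Spi1 (0.31, adjusted p = 0.388) and C1qc (0.28, adjusted p = 0.343) were not called. Among 10 genes tested of tissue-resident macrophages, 3 were lower and 0 higher, where 15.3% of all genes were lower and 24.3% higher. The lower genes were Cd209f (-3.004, adjusted p = 0.000281, uncertain since its family holds near-identical copies), Clec10a (-2.06, adjusted p = 0.00215), both lectins, and the lipid transfer protein Pltp (-1.44, adjusted p = 0.00278). Of 9 activation genes tested, Nos2, the inducible nitric oxide synthase, was higher (2.28, adjusted p = 0.000815) and Retnla, induced by interleukin 4, was lower (-3.94, adjusted p = 0.000187).

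Of 8 receptors for recruiting signals 5 were higher and 0 lower, against 24.3% and 15.3% of all genes. Among them were Csf2rb (1.53, adjusted p = 0.00458, uncertain since it has a near-identical copy) and Csf2ra (1.33, adjusted p = 4.28e-05), chains of the GM-CSF receptor, Csf3r (1.33, adjusted p = 0.00165), the G-CSF receptor, and Flt1 (1.07, adjusted p = 0.0129), a VEGF receptor. Ccr2, the receptor for CCL2, differed by -0.090 (adjusted p = 0.820). Of 11 further ligands tested, Vegfa was higher (1.11, adjusted p = 0.00517), and Ccl8 (-1.65, adjusted p = 0.00369) and Ccl5 (-1.29, adjusted p = 0.0120) were lower. Il34, the second ligand of the Csf1r receptor, differed by -0.46 (adjusted p = 0.271).

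Most markers of other leukocytes did not pass beside Cd68. Ptprc, which encodes CD45, was the 1 of 5 pan-leukocyte genes called (1.17, adjusted p = 0.000368), and 3 of 6 neutrophil genes and 2 of 6 dendritic-cell genes tested were higher, where 24.3% of all genes were. The summed level of the 8 neutrophil genes listed was 135 to 2504 (median 893) in the Plk2-/-; p53-/- tumors and 60.9 to 2467 (median 267) in the p53-/- tumors, with Ly6g, Camp and Retnlg at 0 in at least 1 tumor of each genotype and Ngp at 0 in at least 1 p53-/- tumor. That of the 7 dendritic-cell genes was 545 to 4974 (median 1761) and 450.3 to 1892 (median 767), with none at 0. None of the T-cell, B-cell, endothelial, lymphatic, fibroblast or epithelial genes listed was called, while Cma1 of mast cells (-1.71, adjusted p = 0.0341) and Cfd of adipocytes (-2.24, adjusted p = 0.0443) were lower. The part of these cells in the Cd68 difference was not tested. Of the 24 genes of these lists chosen by the naming rule and called between the genotypes, 19 lost their call with only the 7 primary Plk2-/-; p53-/- tumors, among them Msr1 (0.68, adjusted p = 0.446), Mertk (1.11, adjusted p = 0.135), Nos2 (1.70, adjusted p = 0.144), Csf3r (1.13, adjusted p = 0.187) and Ptprc (0.72, adjusted p = 0.215). The 5 that kept it were Csf2ra, Ccl5, Ccl8, Retnla and the neutrophil gene Ngp. Itgam (0.63, adjusted p = 0.517 with the 7) also lost its call with quantile normalization (0.99, adjusted p = 0.0536).

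Within a tumor, Cd68 was high relative to most of the other macrophage genes, a comparison chosen after the values were seen. Cd68 was the 1 member called between the genotypes, so its ratios are not separate support for that call. They were not tested with only the 7 primary Plk2-/-; p53-/- tumors. The ratio of Cd68 to C1qb was 0.221 to 0.637 (median 0.449) in the Plk2-/-; p53-/- tumors and 0.114 to 0.536 (median 0.233) in the p53-/- tumors. Of 7 such ratios 5 were higher, tested by permutation with p adjusted over the 7. These were the ratios to C1qa (1.04, adjusted p = 3.5e-05), C1qb (0.82, adjusted p = 3.5e-05), Csf1r (1.04, adjusted p = 9.33e-05), Adgre1 (0.94, adjusted p = 0.00191) and Lyz2 (0.59, adjusted p = 0.0414), given as differences on the log2 scale. The ratios to C1qa and C1qb had a raw permutation p of 1e-05, the smallest that the resamples can give. Those to Mrc1 (0.72, adjusted p = 0.0656) and Cd163 (0.76, adjusted p = 0.228) were not called. The ratio to Lyz2 lost its call without p53null-7435 (0.57, adjusted p = 0.0579) and with alike tumors as 1 sample (0.28, adjusted p = 0.315).

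The C1q chains differed in proportion. C1qa over C1qb was 1.01 to 1.39 (median 1.17) in the Plk2-/-; p53-/- tumors and 1.21 to 1.61 (median 1.35) in the p53-/- tumors (-0.22, adjusted p = 6e-05 by permutation over 3 ratios). C1qa over C1qc was lower too, with medians of 1.15 and 1.52 (-0.35, adjusted p = 6e-05). C1qb over C1qc did not pass (-0.13, adjusted p = 0.0857) unless alike tumors were entered as 1 sample (-0.21, adjusted p = 0.00684). The levels of C1qa, C1qb and C1qc themselves were not called between the genotypes.

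**Figure D3:**
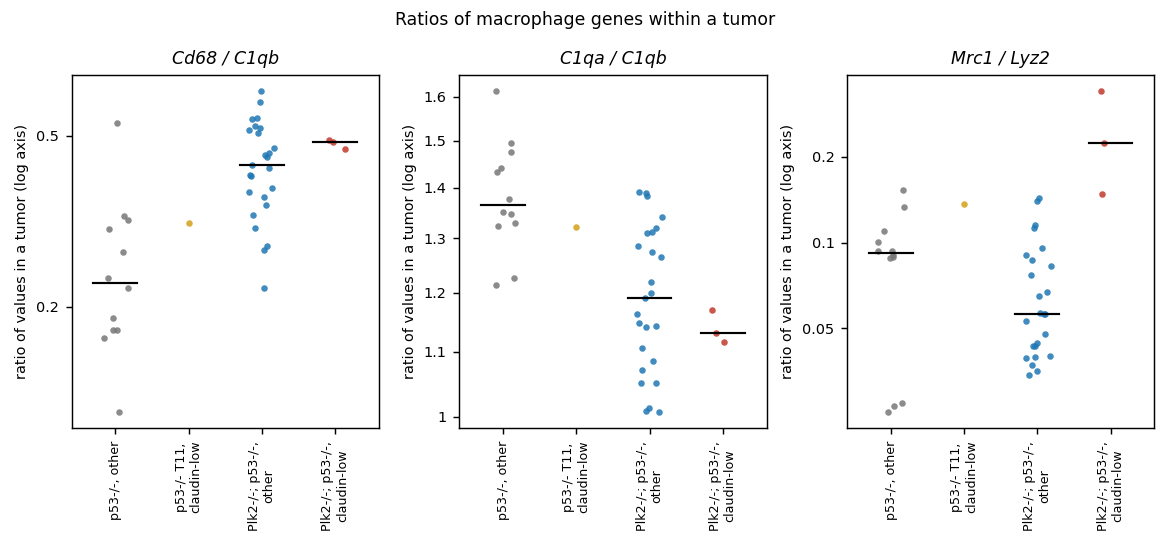
Ratios of the values of a pair of genes within each tumor, on log axes, for the 4 groups of tumors, with medians as bars. Cd68 over C1qb has a median of 0.449 in all Plk2-/-; p53-/- tumors against 0.233 in all p53-/- tumors, and C1qa over C1qb is lower in the former. For Mrc1 over Lyz2 the 3 claudin-low tumors (0.148 to 0.341) lie above all 25 other Plk2-/-; p53-/- tumors.

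The second comparison set the claudin-low trio against the other 25 Plk2-/-; p53-/- tumors. The trio also stood apart in blood endothelial genes, which the class name does not cover (sums of 165585 to 186496 against 2572 to 78025). Whether a difference goes with the class or with these genes was not tested. Since the class was called from clustering of expression in which these tumors took part, it is not independent of these values. Ccl2 and Mrc1 were higher, and the other 8 members did not pass. Ccl2 was 765 ± 285 (SD, n = 3) against 239.6 ± 182 (SD, n = 25), a log2 difference of 1.96 (SE 0.618, limma adjusted p = 0.0134, exact permutation p = 0.00336 over 3276 splits), and 2 of the 3 tumors were above all 25. Mrc1 was 2098 ± 1126 (SD, n = 3) against 936 ± 554 (SD, n = 25), a log2 difference of 1.24 (SE 0.448, adjusted p = 0.0309, exact permutation p = 0.0134), and 1 of the 3 was above all 25. Over all 17153 genes tested 37.3% were called, 20.2% as higher and 17.1% as lower, so 2 of 10 members called higher is near the background share. For no member did the groups not overlap, against 11.1% of all genes with the trio wholly higher and 8.87% with it wholly lower.

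Both calls changed when 1 of the trio was left out, when the number of genes called also fell, from 6391 to between 4527 and 4629. Ccl2 lost its call without PLK2null-732 (1.78, adjusted p = 0.0837) and without PLK2null-743 (1.78, adjusted p = 0.0824), and kept it without PLK2null-733 (2.32, adjusted p = 0.0212). Mrc1 lost its call without PLK2null-743 (0.83, adjusted p = 0.266) and without PLK2null-733 (1.39, adjusted p = 0.0602), and kept it without PLK2null-732 (1.49, adjusted p = 0.0423). With the trio entered as 1 sample, whose spread is then assumed to be that of the others, neither Ccl2 (1.79, adjusted p = 0.384) nor Mrc1 (1.17, adjusted p = 0.451) passed.

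Among the members that did not pass, Csf1r (0.66, SE 0.341, adjusted p = 0.133) and Adgre1 (0.58, adjusted p = 0.248) were on the higher side. C1qa (-0.69, adjusted p = 0.257), C1qb (-0.63, adjusted p = 0.319), Lyz2 (-0.62, adjusted p = 0.262), Csf1 (-0.62, adjusted p = 0.289), Cd163 (-0.55, adjusted p = 0.562) and Cd68 (-0.42, adjusted p = 0.597) were on the lower side. The median of the members was -0.49 against 0.023 for all genes.

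Relative to other macrophage genes of the same tumor, in ratios chosen after the values were seen and tested by exact permutation with p adjusted over 7 ratios, Mrc1 was higher in the trio over Lyz2 (1.86, adjusted p = 0.00214), C1qa (1.93, adjusted p = 0.00499), C1qb (1.87, adjusted p = 0.00499) and Cd68 (1.66, adjusted p = 0.0246). Its ratios to Csf1r (0.58, adjusted p = 0.164), Adgre1 (0.65, adjusted p = 0.121) and Cd163 (1.80, adjusted p = 0.0675) did not pass. Mrc1 over Lyz2 was 0.148 to 0.341 (median 0.223) in the trio and 0.0342 to 0.143 (median 0.0563) in the 25, so these did not overlap, and its raw exact p of 0.000305 is the smallest the splits can give. Mrc1 was itself called in this comparison, so its ratios are not separate support for that call. The splits count the alike tumors of the trio as independent. With the trio as 1 of 18 samples the smallest exact p is 0.0556, so no ratio could pass, and the difference for Mrc1 over Lyz2 was 1.97, adjusted p = 0.259 by exact permutation. The ratio to Cd68 lost its call without PLK2null-743 (1.47, adjusted p = 0.124) and without PLK2null-733 (1.65, adjusted p = 0.0798), and that to Cd163 passed without PLK2null-743 (2.44, adjusted p = 0.0349).

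Of 22 other macrophage genes tested in the trio, 2 were higher and 4 lower, where 20.2% of all genes were higher and 17.1% lower. The largest changes were those of the endotoxin co-receptor Cd14 (-3.19, adjusted p = 0.00146), the sialic acid receptor Siglec1 (-2.29, adjusted p = 0.00142), the lipid-sensing receptor Trem2 (-2.19, adjusted p = 0.000519) and Irf8 (2.17, adjusted p = 8.15e-05), a transcription factor of monocytes and dendritic cells. Spi1 (-0.23, adjusted p = 0.757) and C1qc (-0.38, adjusted p = 0.488) were not called. Of 10 resident-macrophage genes, Lyve1 (6.20, adjusted p = 8.18e-06), Stab1 (3.82, adjusted p = 2.46e-07) and Timd4 (3.66, adjusted p = 0.00342) were higher and Folr2 was lower (-1.74, adjusted p = 0.0351). Of 10 activation genes tested, 4 were higher, led by Tnf (2.95, adjusted p = 1.7e-05), Nos2 (2.71, adjusted p = 0.0130) and Il6 (2.33, adjusted p = 0.00545), and Arg1, the arginase of alternatively activated macrophages, was lower (-5.18, adjusted p = 6.98e-06). Nos2 lost its call without any 1 of the trio (2.68, adjusted p = 0.0574 without PLK2null-733), Il6 without PLK2null-743 (1.69, adjusted p = 0.103), and Folr2 without PLK2null-732 (-1.18, adjusted p = 0.279) or PLK2null-733 (-1.23, adjusted p = 0.260). Of the 48 list genes of the naming rule called in the trio, 28 lost their call with alike tumors as 1 sample.

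None of the 11 other recruiting ligands tested was higher in the trio, and Csf3 (-3.71, adjusted p = 0.0126), Ccl12 (-2.14, adjusted p = 0.00145) and Cx3cl1 (-1.98, adjusted p = 4.14e-05) were lower. Of all genes 20.2% were higher and 17.1% lower. With all 41 tumors and genotype as a covariate, Ccl12 (-1.22, limma adjusted p = 0.0816) and Cx3cl1 (-0.53, limma adjusted p = 0.459) lost their calls and Csf3 kept its call. Csf3 lost its call without PLK2null-732 (-3.68, adjusted p = 0.0562) or PLK2null-733 (-3.27, adjusted p = 0.0901). Il34 was at 1.14 (adjusted p = 0.0931). Of the receptors Csf2rb (3.56, adjusted p = 1.09e-05) and Flt1 (2.53, adjusted p = 4.82e-05) were higher and Csf2ra (-1.36, adjusted p = 0.00211) was lower. Ccr2, the receptor for CCL2, averaged 347 in the trio and 422 in the others (-0.10, adjusted p = 0.898).

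Markers of several other cell types were also called in the trio, some higher and some lower, where 20.2% of all genes were higher and 17.1% lower. All 6 endothelial genes listed were higher in the trio and summed to 165585 to 186496, against 2572 to 78025 (median 4877) in the 25 others. Of 5 lymphatic genes 4 were higher and 1, Pdpn, was lower, with sums of 86762 to 146009 against 521 to 61968 (median 1493), and Mrc1, Lyve1 and Stab1 are known in lymphatic or sinusoidal endothelium as well as in macrophages. All 6 T-cell genes were higher, with sums of 2111 to 3689 against 127 to 2065, as were all 4 B-cell genes, with sums of 661 to 887 against 7.91 to 4616, and 5 of 6 dendritic-cell genes tested, with sums of 3604 to 4974 against 545 to 3029. All 4 epithelial genes and 3 of 6 fibroblast genes were lower. None of these genes was at 0 in the trio, while Prox1, Mmrn1, Ccl21a and Ms4a1 were each at 0 in at least 1 of the 25. Of the 6 neutrophil and 3 adipocyte genes tested none was called, and 2 of 5 pan-leukocyte genes were higher. The part of other cells in the Mrc1 and Ccl2 values was not tested. Without PLK2null-7763, the other tumor most like the trio (r = 0.670 to 0.722), Ccl2 (1.995, adjusted p = 0.0122) and Mrc1 (1.28, adjusted p = 0.0212) kept their calls.

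In the p53-/- tumors the only tumor of the class was p53null-T11. Its difference from the mean of the other 12 p53-/- tumors was 2.36 for Ccl2, 1.14 for Mrc1 and -3.14 for Cd163, values of 1 tumor with no replicate. None of the 10 members passed the limma test of whether the claudin-low difference itself differed between the genotypes, in which 9.97% of all genes were called. The difference was 2.58, SE 1.54, adjusted p = 0.324 for Cd163 and -0.40, SE 1.28, adjusted p = 0.893 for Ccl2. This test rests on 1 tumor, whose spread is assumed equal to that of the others, and does not show that the genotypes are alike. The endothelial genes summed to 6876 in p53null-T11 and the lymphatic genes to 6209, far below the trio, beside its Ccl2 of 874. All 41 tumors were also fitted by limma with genotype as a covariate, where 31.3% of all genes were called. The 4 claudin-low tumors then differed from the rest in Ccl2 (2.06, adjusted p = 0.00373) and Mrc1 (1.21, adjusted p = 0.0449). Most of these 4 are the alike trio, so this fit is not separate support.

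The members were then compared with each other over the tumors, on log2(value + 1), as a description over tumors that share depth, scaling and in part perhaps a parent. C1qa and C1qb moved almost as 1 gene (r = 0.974 over 41 tumors, 0.984 in the Plk2-/-; p53-/- and 0.985 in the p53-/- tumors). Csf1r and Adgre1 were the next pair (r = 0.867). Cd68 followed C1qb at 0.928 in the Plk2-/-; p53-/- tumors and 0.729 in the p53-/- tumors, and Mrc1 followed C1qb at 0.0849 and 0.659. Cd163 stood apart from the rest, with r between -0.243 (C1qa) and 0.126 (Mrc1) over the 41 tumors.

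**Figure D4:**
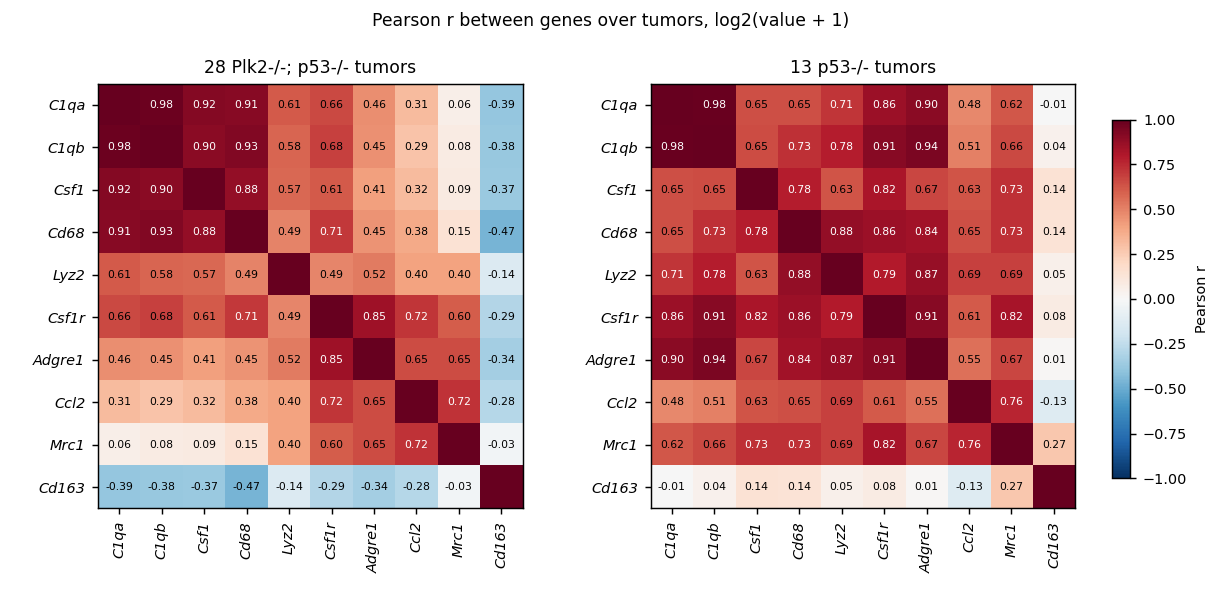
Pearson r between each pair of genes on log2(value + 1), over the 28 Plk2-/-; p53-/- tumors (left) and the 13 p53-/- tumors (right), with colour from blue (-1) to red (1). Cd163 correlates weakly or negatively in both, and Mrc1 with C1qa is near 0 on the left (0.0621) and higher on the right (0.620).

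Whether the signals track the macrophage genes was tested for the 16 pairs of Csf1 or Ccl2 with the 8 macrophage genes. The p-values came from permutation and were adjusted over the 16. The share of all genes that would pass with Csf1 or Ccl2 was not computed. Counts of pairs that passed thus describe these pairs only. Csf1 rose with C1qb (r = 0.853, rho = 0.851, adjusted p = 2.67e-05 for r), C1qa (r = 0.841, rho = 0.802, adjusted p = 2.67e-05 for r) and Cd68 (r = 0.830, rho = 0.847, adjusted p = 2.67e-05 for r), for which the raw p of 1e-05 was the smallest that the resamples can give. It also rose with its receptor Csf1r (r = 0.639, rho = 0.596, adjusted p = 2.67e-05 for r), Lyz2 (r = 0.578, rho = 0.561, adjusted p = 0.000120 for r) and Adgre1 (r = 0.469, rho = 0.382, adjusted p = 0.00363 for r). With Mrc1 (r = 0.299, rho = 0.242, adjusted p = 0.0674 for r) and Cd163 (r = -0.171, rho = -0.199, adjusted p = 0.288 for r) it did not pass. Without PLK2null-1965 and PLK2null-7748, the tumors farthest from the median of Csf1, r was 0.821 with C1qb, 0.551 with Csf1r and 0.363 with Adgre1. Within the Plk2-/-; p53-/- tumors 5 pairs of Csf1 passed and within the p53-/- tumors 7, with r for C1qb of 0.905 (permutation adjusted p = 5.33e-05) and 0.655 (adjusted p = 0.0317). For Mrc1 r was 0.0881 (adjusted p = 0.657) in the former and 0.732 (adjusted p = 0.0212) in the latter, and whether these differ was not tested.

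The highest correlations of Ccl2 were with members other than those of Csf1. It rose with Mrc1 (r = 0.732, rho = 0.696, adjusted p = 2.67e-05 for r), Csf1r (r = 0.675, rho = 0.669, adjusted p = 2.67e-05 for r) and Adgre1 (r = 0.615, rho = 0.557, adjusted p = 4.57e-05 for r). Lyz2 (r = 0.517, rho = 0.455, adjusted p = 0.000889 for r) and Cd68 (r = 0.435, rho = 0.449, adjusted p = 0.00666 for r) passed as well. With C1qa (r = 0.355, rho = 0.307, adjusted p = 0.0304 for r) and C1qb (r = 0.347, rho = 0.322, adjusted p = 0.0338 for r) r passed but rho did not (adjusted p = 0.0656 and 0.0548), and with Cd163 (r = -0.208, rho = -0.162, adjusted p = 0.203 for r) neither did. Without PLK2null-743 and p53null-2396R, the tumors farthest from the median of Ccl2, r was 0.675 with Mrc1 and 0.641 with Csf1r. Within the Plk2-/-; p53-/- tumors 3 pairs of Ccl2 passed and within the p53-/- tumors 4, with r for Mrc1 of 0.724 (permutation adjusted p = 0.000192) and 0.760 (adjusted p = 0.0146). Without the 4 claudin-low tumors r with Mrc1 was 0.687, and with alike tumors as 1 sample 0.747.

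**Figure D5:**
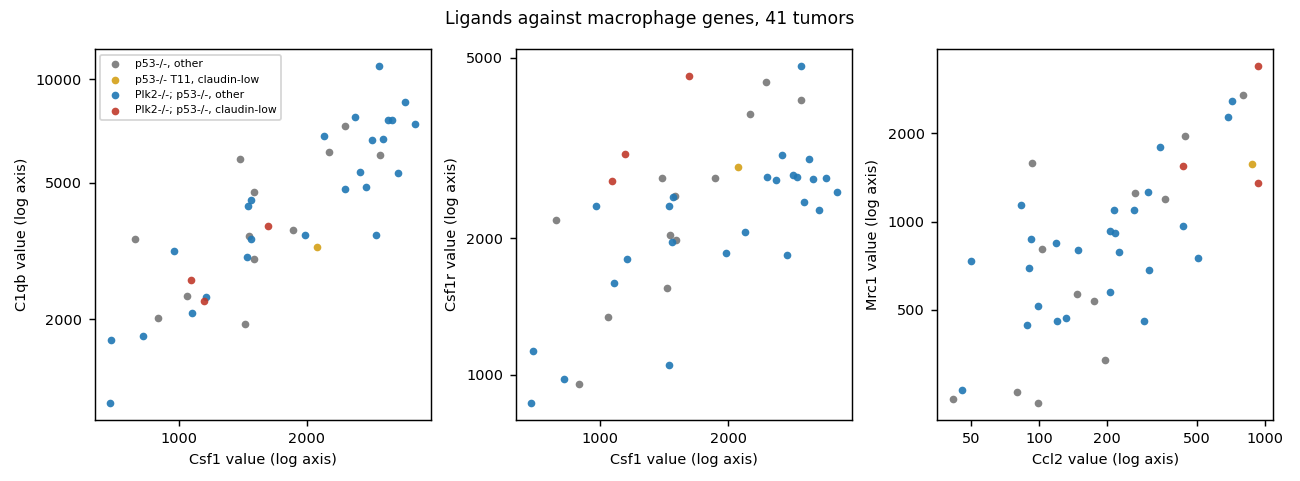
Csf1 against C1qb and Csf1r, and Ccl2 against Mrc1, in 41 tumors on log axes, coloured by group. Csf1 and C1qb rise together (r = 0.853) as do Csf1 and Csf1r (r = 0.639), and Ccl2 and Mrc1 rise together (r = 0.732) with PLK2null-743 highest for both.

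The genes most alike to each member over the 41 tumors were sought among 14680 genes, as a description by Pearson r. C1qa and C1qb were most like C1qc (0.927 and 0.953), then Spi1 (0.912 and 0.945) and P2ry6 (0.906 and 0.928), a receptor for extracellular nucleotides. Spi1 was also second for Csf1 (0.874), after the lysosomal protease gene Lgmn (0.890), and in the first 5 for Cd68 (0.888), which was led by the Fc receptor gene Fcgr3 (0.897). Csf1r and Adgre1 shared Kcnk13, a potassium channel gene, as the most alike (0.919 and 0.883), and Lrrc25 and Btk were in the first 5 of both. Lyz2 was closest to Ms4a6d (0.839) and Tyrobp (0.794), the adaptor of myeloid receptors. Mrc1 was closest to Nxpe5 (0.861) and Npl (0.834), and Ccl2 to Olfml2b (0.819) and Hmox1 (0.816), the heme-degrading enzyme. Cfp, the complement factor properdin, was in the first 5 of both Mrc1 (0.791) and Ccl2 (0.807). For Cd163 the highest value was 0.703, for Zbtb7c, and none of its first 5 (with Lypd6b, Cpxm2, Matn4 and Rbpjl) was among the first 5 of another member.

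Tumors that were alike as a whole were alike in some members more than in others. For Cd68 the SD of log2(value + 1) was 0.330 within the 4 sets of alike tumors and 0.854 between the 18 sets and single tumors of the Plk2-/-; p53-/- group. C1qa (0.364 and 0.729), C1qb (0.355 and 0.754), Csf1 (0.338 and 0.716) and Lyz2 (0.367 and 0.747) were similar, whereas Csf1r (0.453 and 0.487) varied about as much within a set as between sets and Cd163 (1.18 and 0.962) more. In the set of PLK2null-1984, PLK2null-1985, PLK2null-1986 and PLK2null-7750 Cd68 was 3914 to 6002, C1qb 7605 to 10923 and Csf1 2962 to 3403. In the set of PLK2null-1964, PLK2null-1965 and PLK2null-7747 Cd68 was 618 to 685, C1qb 1745 to 2089.6 and Csf1 696 to 1078. These sets did not overlap for any of the 3 genes. Nor did they for Csf1r (2698 to 4791 and 979 to 1592), Adgre1, Lyz2, C1qa and Cd163. Of these, Cd163 alone was lower in the set of PLK2null-1984. Their Mrc1 values overlapped, at 442 to 1263 and 469 to 1142, as did those of Ccl2. The sets were linked by expression in these same data, and the share of all genes that separates them is not given here.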

How the data were processed

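RNA from 41 tumors was sequenced from both ends after TruSeq mRNA preparation. The authors aligned reads to mm10 with STAR 2.7.6a and quantified genes with Salmon 1.4.0 (versions from the submitters' processing notes). They deposited upper-quartile-scaled estimated counts as a linear signal for 47480 symbols. The counting strand and annotation are not given in the sources used here. Between 77.9 and 80.5% of nonzero values lay within 0.1 of a whole read, too few to recover reads, so no count model was used. A floor of 3 reads allows for counting error alone.

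Tests used limma 3.58.1 (R 4.3.3) without an intensity trend on log2(value + 1), which understates changes of low genes, on genes whose mean reached 10, with Benjamini-Hochberg adjustment over all genes tested and a threshold of 0.05. Single values were tested by 2-sided permutation in Python 3.11.15 with numpy 2.4.6. Limma was tested on simulated data. The closest pair of libraries, PLK2null-7750 and PLK2null-1984, differed beyond sampling noise (median chi-square 4.39 per gene), so no library was a copy of another. Each tumor counted as 1 sample, although this difference cannot show that alike tumors are independent. Sets of alike tumors were linked by correlations above 0.75 over variable genes.

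Genotype came from the labels. The claudin-low class of PLK2null-743 and p53null-T11 came from the study's text, and PLK2null-732 and PLK2null-733 were grouped with them here. Members and gene lists were chosen with earlier results of these data known. Named were all 10 members, up to 4 called genes per list and comparison by size of change, Spi1, Il34, Ccr2, C1qc and Plk2, and genes among the 5 most alike per member. Lyz1, Hmgxb3 and the 3 genes near Cd68 were added after values were seen. Some genes that the rule names are not reported here. Gene positions are those of GENCODE vM21 (GRCm38), where 95.0% of symbols matched 1 gene. Alternatives were other pseudocounts, filters, scalings and sets of tumors.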

Additional observations from a re-analysis of the deposited data

How the results depend on the processing

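Under the alternatives to the genotype comparison, Cd68 was the 1 member called in every setting but 1. With only the 7 primary Plk2-/-; p53-/- tumors 0 of 10 members and 2942 genes were called, against 6802, and Csf1 (-0.011), Adgre1 (-0.34), Mrc1 (-0.21), C1qb (-0.12), Ccl2 (-0.82) and Spi1 (-0.071) changed sign without a call in either setting. The sign of Adgre1 also turned with TMM factors (-0.029), quantile normalization (-0.074) and without the 4 claudin-low tumors (-0.033), that of Cd163 with quantile normalization (-0.015), and that of Ccr2 with alike tumors as 1 sample (0.011). Quantile normalization moved the median of all genes from 0.097 to -0.0049 and the share of higher genes among those called from 61.4 to 50.7%, with Cd68 at 0.87, adjusted p = 0.0248 by limma. In the claudin-low comparison, leaving out 1 of the 3 tumors left 0 to 1 members called, against 2, and 4527 to 4629 genes, against 6391. With alike tumors as 1 sample, an alternative added after the data were seen, 0 members and 1581 genes were called. Leaving out 1 of the trio gave -1.59 to 0.029 for Cd163 and -0.30 to 0.059 for Ccr2. Over all 41 tumors Ccr2 was at 0.086, and the difference between the genotypes in the claudin-low difference of Mrc1 was -0.046 with TMM factors. The cause of these changes was not tested. Of the 16 correlations 13 passed with another pseudocount and with TMM factors, and 14 without the claudin-low tumors or with alike tumors as 1 sample, when Csf1 with Mrc1 passed too (r = 0.385 and 0.410). No paired analysis was possible because the replicate numbers follow the order of deposit and tie no tumors of the groups together.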
